A study of Mus musculus with 24 samples.

Results

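The Ifit, Mx and related type I effectors were read as 7 genes, Ifit1, Ifit2, Ifit3, Mx1, Mx2, Rsad2 and Usp18, out of 18193 genes measured on the arrays. They were chosen by name, and all 7 were found, on 9 of the 45101 probe sets. Type I interferons bind a receptor made of IFNAR1 and IFNAR2, and signalling from it acts through interferon-stimulated response elements in the promoters of genes such as these. The encoded proteins are mostly antiviral: the Ifit proteins bind viral RNA or form complexes with one another, the Mx proteins are dynamin-like GTPases that block virus replication, and Rsad2 (viperin) is a radical SAM enzyme. Usp18 removes the ubiquitin-like protein ISG15 from its targets and also dampens signalling at the receptor.

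The arrays held RNA of shaved skin, from the dorsal scapular region, of female RAG2-/- mice, which cannot assemble antigen receptors and so lack mature T and B cells. Syngeneic mice had received Balb/c splenocytes. GVH-SSc mice, which model scleroderma through a graft-versus-host reaction, were given B10.D2 splenocytes and either isotype antibody or anti-IFNAR1, and no antibody is named for syngeneic mice. Skin was taken at day 14 or day 28, with 4 arrays in each of the 6 groups. The labels do not say whether each array was a separate animal, so p-values measure the spread between arrays, which may be technical.

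Levels are given as log2(intensity + 16), the deposited probe set intensity with an offset that shrinks changes of dim genes. Array medians of the intensity ran from 14.8 to 17.7. The intensities of the members ran from 129 to 5097 for Ifit1, from 50.8 to 1745 for Ifit2, from 126 to 2221 for Ifit3, from 113 to 2069 for Rsad2 and from 117 to 1680 for Usp18. Mx1 ran from 9.76 to 731, and Mx2, the dimmest of the 7, from 10.9 to 86.4. A gene is called when its adjusted p is under 0.05 in limma's moderated test (Benjamini-Hochberg over all 18193 genes), and every adjusted p below comes from that fit of all 24 arrays. Changes are log2 differences ± SE with 4 arrays in each group.

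The promoters of the members were read for the binding letters of the pathway, because they show which of these genes carry the element near their start. RefSeq windows of the GRCm38 build, 250 bases before to 50 after each start, were given for 4 of the 7 genes, namely Ifit1, Ifit2, Ifit3 and Rsad2. The core of the interferon-stimulated response element, GAAA, any 2 bases and GAAA again, was searched on both strands, so on the other strand it reads TTTC, 2 bases and TTTC. It was found in 3 of the 4, against 3.99% of the 27025 genes in the table. The 250 bases before the start of these 3 genes are printed 5′ to 3′ on the strand of the gene, with each match in capitals. They lie at chr19:34640639-34640888 on the plus strand for Ifit1, chr19:34583279-34583528 on the plus strand for Ifit3 and chr12:26456453-26456702 on the minus strand for Rsad2.
Ifit1: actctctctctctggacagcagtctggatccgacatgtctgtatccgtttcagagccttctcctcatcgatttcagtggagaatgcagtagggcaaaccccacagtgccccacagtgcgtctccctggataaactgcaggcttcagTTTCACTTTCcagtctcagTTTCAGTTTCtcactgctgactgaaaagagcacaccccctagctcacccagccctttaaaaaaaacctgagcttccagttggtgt
Ifit3: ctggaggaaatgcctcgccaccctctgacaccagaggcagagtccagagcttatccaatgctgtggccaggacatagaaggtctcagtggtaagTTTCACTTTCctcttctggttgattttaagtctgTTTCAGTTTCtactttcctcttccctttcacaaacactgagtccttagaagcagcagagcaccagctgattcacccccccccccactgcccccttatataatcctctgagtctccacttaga
Rsad2: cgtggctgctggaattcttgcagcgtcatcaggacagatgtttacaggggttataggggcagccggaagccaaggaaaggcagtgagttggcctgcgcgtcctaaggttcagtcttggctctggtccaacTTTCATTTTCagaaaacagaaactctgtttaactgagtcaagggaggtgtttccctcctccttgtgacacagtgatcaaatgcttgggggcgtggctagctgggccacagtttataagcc

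Ifit1 and Ifit3 each held 2 matches and Rsad2 held 1, all on the strand opposite to the gene. The same letters stand in both genes, TTTCACTTTC upstream and TTTCAGTTTC nearer the start. Neither of the Ifit2 windows held a match, which says only that these letters are not in those windows. TTCNNNGAA, the gamma-activated site of interferon gamma signalling, was found in 1 of the 4 genes, Ifit2, against 9.55% of the genes in the table. Of the other type I interferon-inducible genes 26 had a window, of which 13 held the first motif and 6 the second.

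Isotype skin at day 14 had the highest group mean of all 6 groups for each of the 7 genes. The lowest mean was that of anti-IFNAR1 skin at day 28 for Ifit2, Ifit3, Mx1 and Mx2, and that of syngeneic skin at day 28 for Ifit1, Rsad2 and Usp18. Of the 35 pairs of groups that neighbour each other in these orders, 2 did not overlap, isotype over syngeneic skin at day 14 for Ifit2 and for Ifit3. The other neighbours shared part of their range.

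**Figure D1:**
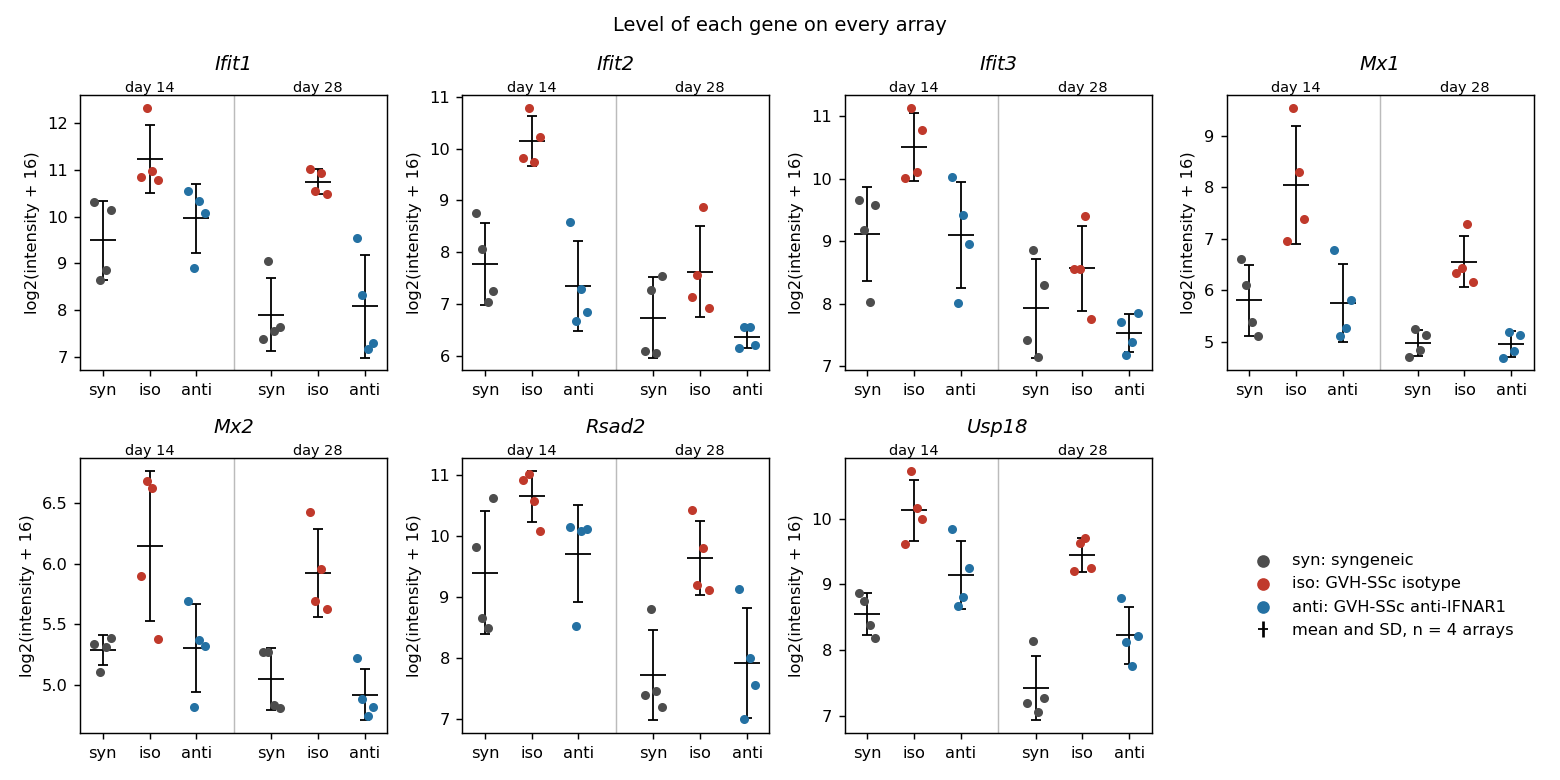
Level of each of the 7 genes on every array, as log2(intensity + 16), by group and day; points are arrays, the bars the mean and SD of 4 arrays. For Ifit2 the 4 isotype arrays at day 14 sit between 9.73 and 10.78, above all other arrays, while for Ifit1 the isotype arrays lie at 10.49 or above at both days.

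Isotype and syngeneic skin were compared to see what differed with the B10.D2 graft and the isotype antibody. At day 14, 5 of the 7 genes rose, Ifit1, Ifit2, Mx1, Mx2 and Usp18, where 5.29% of all genes were called higher. The median change of the 7 genes was 1.58, and that of all genes was -0.01. For 5 genes, Ifit1, Ifit2, Ifit3, Mx1 and Usp18, all isotype arrays lay above all syngeneic arrays, against 5.11% of all genes.

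Ifit2, whose protein promotes cell death and restricts viral translation, was at 9.82, 10.78, 9.73 and 10.22 on the isotype arrays of day 14 and at 8.76, 8.06, 7.05 and 7.25 on the syngeneic arrays. The lowest isotype array was thus above the highest syngeneic one. The gene rose by 2.36 ± 0.49, or 5.14-fold (adjusted p = 0.0050). Mx1, the nuclear Mx GTPase of the mouse, was at 6.95, 9.54, 8.29 and 7.39 against 6.61, 6.10, 5.38 and 5.10. Isotype replicate 2 stood highest, and replicate 1 was close to syngeneic replicate 1. Mx1 rose by 2.24 ± 0.47 (adjusted p = 0.0051).

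Usp18 was at 9.62, 10.73, 10.16 and 9.995 on the isotype arrays and at 8.87, 8.74, 8.38 and 8.18 on the syngeneic arrays of day 14. The groups did not overlap, with an SD of 0.46 in isotype and 0.32 in syngeneic skin. Usp18 rose by 1.58 ± 0.29 (adjusted p = 0.0025), the smallest SE of the called genes other than Mx2. Ifit1, which binds viral RNA, was at 10.85, 12.32, 10.98 and 10.78 against 10.31, 8.66, 8.86 and 10.14. Syngeneic replicates 1 and 4 came close to the isotype arrays. Ifit1 rose by 1.74 ± 0.54 (adjusted p = 0.039). Mx2, the cytoplasmic Mx protein, rose by 0.85 ± 0.25 (adjusted p = 0.029), although isotype replicate 4, at 5.38, lay within the syngeneic range of 5.11 to 5.39.

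Ifit3 was at 10.01, 11.13, 10.10 and 10.77 on the isotype arrays and at 9.65, 9.18, 8.03 and 9.58 on the syngeneic arrays of day 14. Its groups did not overlap, and its difference of 1.39 ± 0.47 missed the threshold (adjusted p = 0.055). Ifit3 stayed uncalled in 19 of 24 fits without an array (adjusted p up to 0.169). The same held under 7 of 10 other settings (adjusted p up to 0.166). It passed with array medians centred, without the dimmest genes and with a trended robust prior (adjusted p of 0.043, 0.030 and 0.049), and without syngeneic replicate 1 of day 14 or 2 of day 28, anti-IFNAR1 replicate 1 or 2 of day 14, or isotype replicate 3 of day 28 (adjusted p of 0.042 to 0.050). Rsad2 was at 10.92, 11.03, 10.58 and 10.09 against 9.83, 8.67, 8.50 and 10.62. Syngeneic replicate 4 lay among the isotype arrays, and the difference was 1.25 ± 0.53 (adjusted p = 0.13).

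The Rsad2 value came from the brightest of its 3 probe sets, 1436058_at. With each probe set fitted on its own, the other two were called at day 14, 1421009_at at 2.35 ± 0.55 (adjusted p = 0.012) and 1421008_at at 1.62 ± 0.36 (adjusted p = 0.010), so the probe sets of this gene disagree on the call and not on the direction. The last of them is dim, with group means of 4.53 to 6.33. With the mean of all probe sets in place of the brightest, Rsad2 was called (1.74, adjusted p = 0.0057), as it was with the Gapdh ratio as a covariate (1.75, adjusted p = 0.014). In the probe set fit of isotype over syngeneic skin at day 28, 1421008_at was not called (0.70 ± 0.36, adjusted p = 0.29). The other probe sets were called there (adjusted p of 0.024 and 0.011). For anti-IFNAR1 minus isotype at day 28, only 1421009_at was called (-1.78 ± 0.55, adjusted p = 0.048). The brightest was at -1.71 ± 0.53 (adjusted p = 0.051) and 1421008_at at -0.57 ± 0.36 (adjusted p = 0.46).

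The day 14 calls depended on which arrays were fitted. In a fit of the 8 arrays of this comparison none of the 7 was called (adjusted p of 0.077 for Usp18 and 0.093 for Ifit2). Without 1 of isotype replicates 2 and 3 or syngeneic replicates 2 and 3, the count was 3, since Ifit1 (adjusted p of 0.065 to 0.141) and Mx2 (adjusted p of 0.055 to 0.111) then lost their call. Ifit1 also lost it without isotype replicate 1 (adjusted p = 0.064) and Mx2 without syngeneic replicate 4 (adjusted p = 0.058). In the fit of each probe set on its own, which keeps all arrays, the probe set of Ifit1 was not called either (adjusted p = 0.051).

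At day 28, 5 of the 7 genes rose in isotype over syngeneic skin, Ifit1, Mx1, Mx2, Rsad2 and Usp18, where 6.66% of all genes were called higher. The same 5 genes had isotype arrays that all lay above the syngeneic arrays, against 8.09% of all genes. The median change was again 1.58. Ifit2 and Ifit3 were not among the called genes at this day.

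Ifit1 was at 11.02, 10.54, 10.92 and 10.49 on the isotype arrays of day 28 and at 7.39, 9.06, 7.55 and 7.63 on the syngeneic arrays. Every isotype array was more than 1 log2 unit above the highest syngeneic array. Ifit1 rose by 2.83 ± 0.54, or 7.13-fold (adjusted p = 0.0013). Usp18 was at 9.20, 9.63, 9.71 and 9.25 against 7.20, 8.14, 7.06 and 7.27, and rose by 2.03 ± 0.29 (adjusted p = 0.00015). These 2 genes kept their call under each of 34 other settings, which included leaving out each array in turn.

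Rsad2 was at 10.43, 9.20, 9.81 and 9.12 on the isotype arrays of day 28 and at 7.40, 8.82, 7.47 and 7.20 on the syngeneic arrays, and rose by 1.92 ± 0.53 (adjusted p = 0.017). Syngeneic replicate 2 was the high one of its group and still lay below the isotype arrays. Mx1 was at 6.34, 6.43, 7.29 and 6.16 against 4.69, 5.24, 4.84 and 5.13, and rose by 1.58 ± 0.47 (adjusted p = 0.025). Mx2 was at 6.42, 5.69, 5.95 and 5.63 against 5.27, 5.28, 4.84 and 4.82, and rose by 0.87 ± 0.25 (adjusted p = 0.020). Both Mx genes kept to low levels in all groups of this day, and their groups did not overlap.

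Ifit2 was at 7.13, 7.56, 8.87 and 6.92 on the isotype arrays of day 28 and at 6.09, 7.27, 6.06 and 7.54 on the syngeneic arrays. Isotype replicate 3 was the highest, syngeneic replicates 1 and 3 lay below every isotype array, and the other arrays overlapped; the difference was 0.88 ± 0.49 (adjusted p = 0.28). Ifit3 was at 8.55, 8.55, 9.41 and 7.76 against 7.41, 8.86, 7.15 and 8.29, with a difference of 0.64 ± 0.47 (adjusted p = 0.46).

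Of the day 28 calls, those of Mx1, Mx2 and Rsad2 were lost without some single arrays. Without syngeneic replicate 1, 3 or 4 or isotype replicate 1, 3 of the 7 genes were called. Rsad2 was then at an adjusted p of 0.063 without isotype replicate 1, 0.050 without syngeneic replicate 1 and 0.055 without syngeneic replicate 4. Mx1 was at 0.080 without isotype replicate 3, 0.069 without syngeneic replicate 1 and 0.057 without syngeneic replicate 3, and Mx2 at 0.081 without isotype replicate 1, 0.059 without syngeneic replicate 3 and 0.063 without syngeneic replicate 4, all as adjusted p. Without the arrays of high Gapdh ratio 2 were called.

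Anti-IFNAR1 and isotype skin were compared to see which of these levels differed when the receptor was blocked. This comparison shares the isotype arrays with the preceding one, so a high or low isotype array moves both. At day 14, 2 of the 7 genes fell, Ifit2 and Mx1, where 0.654% of all genes were called lower. All 7 differences were negative, with a median of -1.27 against 0.00 for all genes. For 3 genes, Ifit1, Ifit2 and Mx1, all anti-IFNAR1 arrays lay below all isotype arrays, against 7.51% of all genes.

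Ifit2 was at 8.58, 6.67, 7.29 and 6.86 on the anti-IFNAR1 arrays of day 14, all of them more than 1 log2 unit below the isotype arrays given above. Ifit2 fell, with a level 6.92-fold higher in isotype skin (log2 change -2.79 ± 0.49, adjusted p = 0.013). Mx1 was at 6.79, 5.11, 5.26 and 5.81, and fell, with a change of -2.30 ± 0.47 (adjusted p = 0.025). Anti-IFNAR1 replicate 1 was the high array of its group for both genes.

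Neither call held without every array. Ifit2 lost it without anti-IFNAR1 replicate 2 (adjusted p = 0.057) or replicate 4 (adjusted p = 0.058). Mx1 lost it without anti-IFNAR1 replicate 2, 3 or 4 (adjusted p of 0.098, 0.074 and 0.076) or isotype replicate 2 or 3 (adjusted p of 0.080 and 0.081), and with the Gapdh ratio as a covariate (adjusted p = 0.082). In a fit of the 8 arrays of this comparison, or without the arrays of high Gapdh ratio, none of the 7 genes was called by limma, while in the fit of all arrays 6 of the 7 had a 95% interval that left out 0.

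The other 5 genes were not called at day 14. Ifit1 was at 10.56, 8.90, 10.33 and 10.08 on the anti-IFNAR1 arrays, all below the isotype arrays, with a difference of -1.27 ± 0.54 (adjusted p = 0.25). Ifit3 was at 10.02, 8.01, 9.42 and 8.96 with a difference of -1.40 ± 0.47 (adjusted p = 0.14), and Usp18 at 9.84, 8.68, 8.81 and 9.24 with -0.98 ± 0.29 (adjusted p = 0.11). For both, anti-IFNAR1 replicate 1 reached into the isotype range. Mx2 differed by -0.84 ± 0.25 (adjusted p = 0.10) and was called without isotype replicate 4 (-1.10, adjusted p = 0.015). Rsad2, at 10.14, 8.53, 10.09 and 10.11, differed by -0.94 ± 0.53 (adjusted p = 0.39).

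At day 28, 5 of the 7 genes fell with the antibody, Ifit1, Mx1, Mx2, Rsad2 and Usp18, where 4.89% of all genes were called lower. The median of the 7 changes was -1.25. For 5 genes, Ifit1, Ifit2, Mx1, Mx2 and Usp18, the groups did not overlap, against 6.85% of all genes.

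Ifit1 was at 9.53, 8.33, 7.18 and 7.29 on the anti-IFNAR1 arrays of day 28 and fell, with a change of -2.66 ± 0.54 (adjusted p = 0.0030), so the level in isotype skin was 6.31-fold higher. Replicate 1 was the high array and still lay about 1 log2 unit below the isotype arrays. Usp18 was at 8.80, 8.12, 7.76 and 8.22 and fell by 1.22 (SE 0.29, adjusted p = 0.0089). Ifit1 and Usp18 kept their call under each of the 34 other settings here too. Mx1, at 4.69, 5.20, 4.81 and 5.13, fell by 1.6 (SE 0.47, adjusted p = 0.028), and Mx2, at 5.23, 4.89, 4.75 and 4.82, fell by 1.002 (SE 0.25, adjusted p = 0.011).

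Rsad2 was at 9.13, 7.01, 8.01 and 7.56 on the anti-IFNAR1 arrays of day 28 and fell by 1.71 (SE 0.53, adjusted p = 0.038), with replicate 1 just above the lowest isotype array. It lost its call without isotype replicate 1, 3 or 4 (adjusted p of 0.126, 0.076 and 0.050) or anti-IFNAR1 replicate 2, 3 or 4 (adjusted p of 0.105, 0.074 and 0.105). Mx1 lost it without isotype replicate 3 (adjusted p = 0.085) or anti-IFNAR1 replicate 1, 3 or 4 (adjusted p of 0.077, 0.069 and 0.052). Without the arrays of high Gapdh ratio Mx1, Mx2 and Rsad2 all lost their call (adjusted p of 0.070, 0.079 and 0.117).

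Ifit2 was at 6.15, 6.56, 6.56 and 6.22 on the anti-IFNAR1 arrays of day 28, all below the isotype arrays, with a difference of -1.25 ± 0.49 (adjusted p = 0.11). After centring each array on its median it was called (-1.42, adjusted p = 0.043), a scaling that moved the median of all genes by -0.18 in this comparison. Ifit3, at 7.70, 7.18, 7.39 and 7.85, differed by -1.03 ± 0.47 (adjusted p = 0.17). The isotype means of day 28 were 7.62 for Ifit2 and 8.57 for Ifit3. At day 14 the isotype means were 10.14 and 10.50, and syngeneic means at day 28 were 6.74 and 7.93. Whether these levels bear on the missing calls was not tested.

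**Figure D2:**
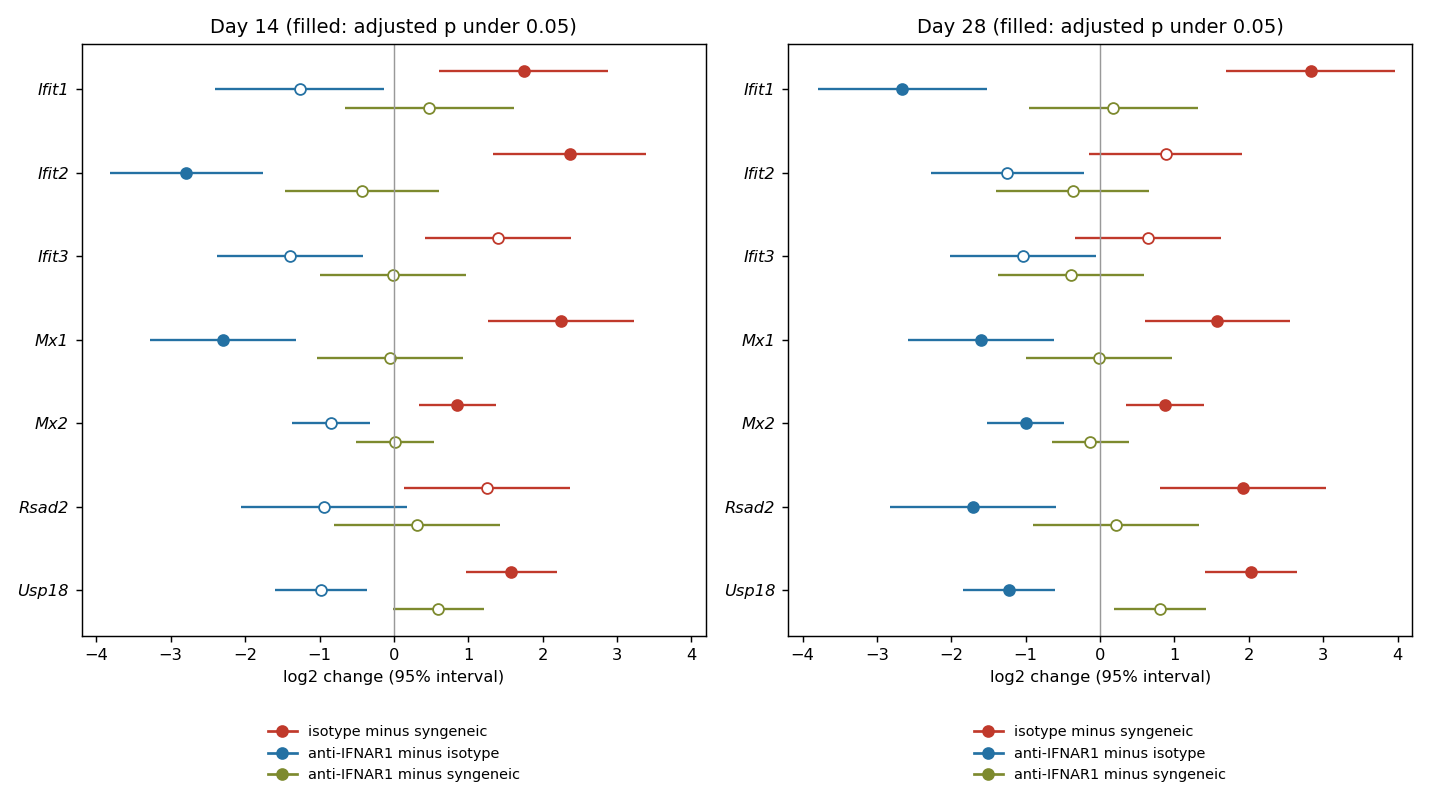
Change of each gene in the 3 comparisons at day 14 (left) and day 28 (right), as log2 difference with its 95% interval; filled points have an adjusted p under 0.05. At day 28 Ifit1 and Usp18 lie far from 0 in both comparisons with isotype skin, and the anti-IFNAR1 minus syngeneic points lie between -0.43 and 0.80 over both days, none filled.

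Anti-IFNAR1 and syngeneic skin were compared to see what remained different with the antibody. None of the 7 genes was called at day 14 by limma, where 1.12% of all genes were, and none had an unadjusted p under 0.05. The differences ran from -0.43 ± 0.49 for Ifit2 to 0.60 ± 0.29 for Usp18, and the 95% intervals of the 7 genes reached from -1.46 to 1.61, so differences of that size are not excluded. Rsad2 is read there from its brightest probe set, at 0.31 ± 0.53. Fitted on its own, 1421009_at differed by 1.29 ± 0.55 (adjusted p = 0.31 in limma's probe set fit), a larger difference than any of these. The dim 1421008_at differed by 0.11 ± 0.36. At day 28 none was called, where 0.033% of all genes were, and 1 had an unadjusted p under 0.05, Usp18 at 0.80 ± 0.29 (adjusted p = 1). Its 95% interval ran from 0.19 to 1.42. Of all genes 370 had an unadjusted p under 0.05 in limma's fit at this day. The groups overlapped for each of the 7 genes at both days; of all genes 1.62% lay wholly above and 5.87% wholly below syngeneic skin at day 14, and 1.34% and 0.374% at day 28. The near-zero differences of Ifit3 and Mx1 at day 14 changed sign with the scaling and that of Mx2 with an offset of 1, as given in the closing section.

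Levels at day 28 were set beside those at day 14 within each treatment. All 7 differences were negative in each of the 3 treatments, syngeneic skin included. In isotype skin 2 genes fell, where 1.05% of all genes were called lower. Ifit2 went from 9.73 to 10.78 at day 14 to 6.92 to 8.87 at day 28 and fell by 2.52 (SE 0.49, adjusted p = 0.013), and Ifit3 fell by 1.94 (SE 0.47, adjusted p = 0.037). For both the days did not overlap, against 5.02% of all genes. This was not particular to isotype skin. The days did not overlap for the same 2 genes in anti-IFNAR1 skin, nor for Usp18 in syngeneic skin. The share of all genes is not given for those treatments. The call of Ifit3 was lost without isotype replicate 2 or 4 of day 14 or replicate 1, 2 or 4 of day 28 (adjusted p of 0.083 to 0.114).

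Ifit1 differed by -0.49 ± 0.54 in isotype skin between the days (adjusted p = 0.84), Usp18 by -0.68 ± 0.29, Rsad2 by -1.01 ± 0.53, Mx1 by -1.49 ± 0.47 (adjusted p = 0.11) and Mx2 by -0.22 ± 0.25. In syngeneic skin none was called by limma, where 0.077% of all genes were, and 5 had an unadjusted p under 0.05, as had 1652 of all genes. The differences ran from -1.68 to -0.24, with a median of -1.12. In anti-IFNAR1 skin none was called, where 0.555% of all genes were, and 4 had an unadjusted p under 0.05, as had 2368 of all genes. The differences there ran from -1.88 to -0.38.

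**Figure D3:**
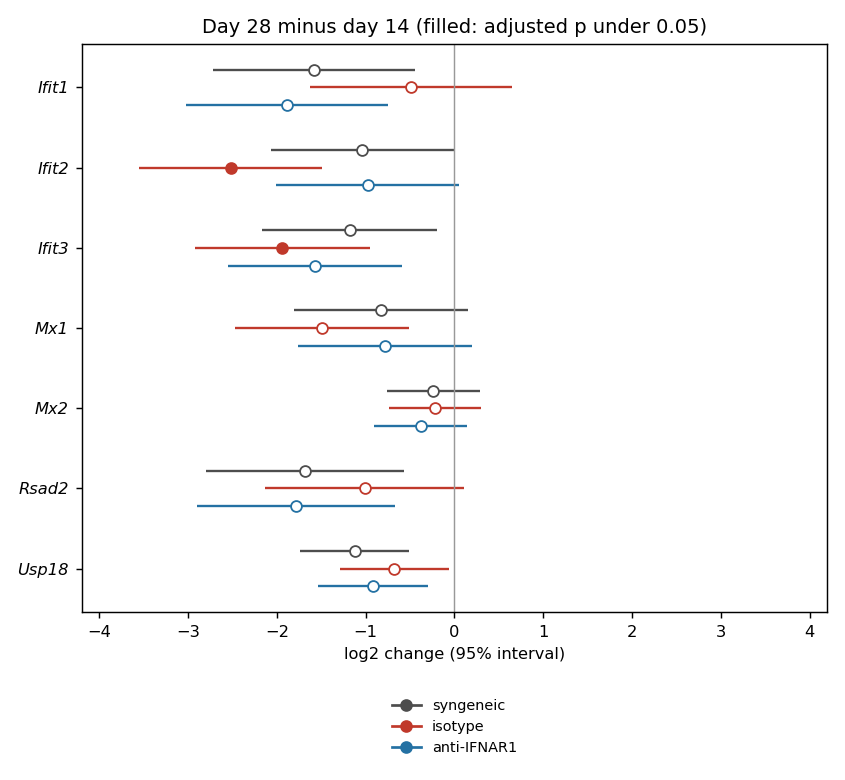
Day 28 minus day 14 for each gene and treatment, as log2 difference with its 95% interval; filled points have an adjusted p under 0.05. All points lie below 0, and the 2 filled ones are Ifit2 and Ifit3 in isotype skin.

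Whether the comparisons themselves differed between days was tested with an interaction term. None of the 7 genes was called for isotype minus syngeneic, where 0.044% of all genes were, and 1 had an unadjusted p under 0.05, Ifit2 at -1.48 ± 0.69 (adjusted p = 0.51). Of all genes 1775 had an unadjusted p under 0.05 in limma's fit for this term. None of the members was called for anti-IFNAR1 minus isotype, where 0.0715% of all genes were, and 1 had an unadjusted p under 0.05, again Ifit2 at 1.54 ± 0.69 (adjusted p = 0.34). For this term 2468 of all genes had an unadjusted p under 0.05. Ifit1 differed by -1.39 ± 0.77 there (adjusted p = 0.45). A call at one day and not at the other is therefore no tested difference between days for any of these genes.

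Within groups the genes tended to be high or low on the same arrays. Isotype replicate 2 of day 14 was the highest of its group for 7 of the 7 genes, anti-IFNAR1 replicate 1 of day 14 was the highest for 7 and replicate 2 the lowest for 7. Syngeneic replicate 2 of day 28 was the highest for 6, and isotype replicate 4 of day 28 the lowest for 6. These arrays thus move all 7 genes at once, and the genes are not independent readings of a group.

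**Figure D4:**
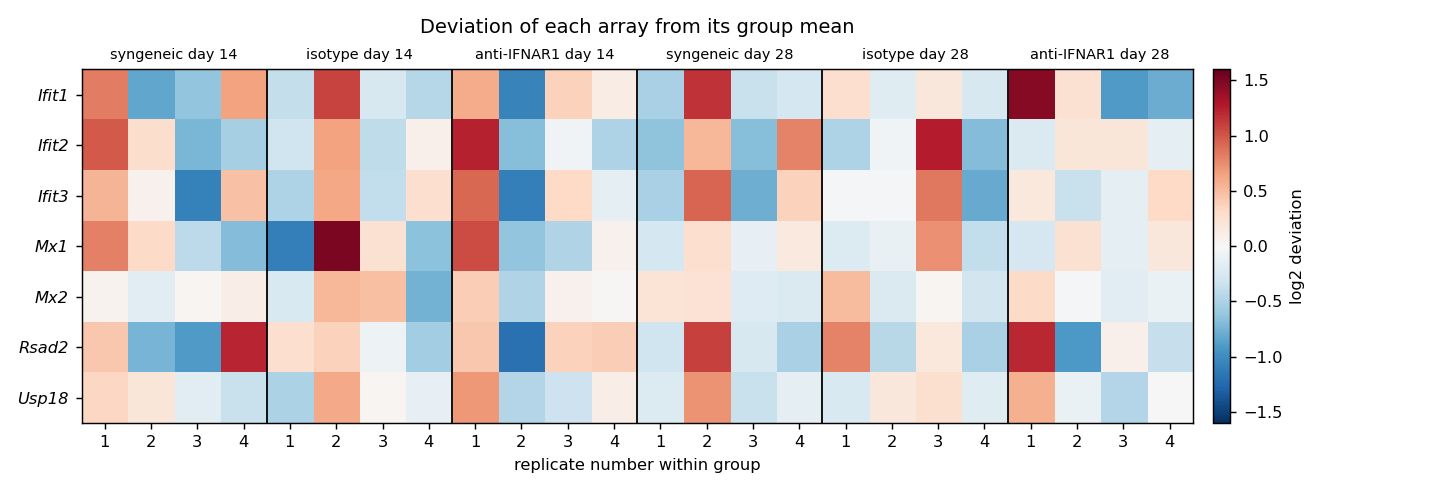
Deviation of each array from the mean of its group, in log2 units, for each gene (rows) and array (columns, by group and replicate number). Red is above and blue below the group mean; isotype replicate 2 of day 14 is red for all 7 genes and anti-IFNAR1 replicate 2 of day 14 is blue for all 7.

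The other genes of the pathway were read from lists. Of 29 measured type I interferon-inducible genes other than these 7, 22 rose in isotype over syngeneic skin at day 14 and 25 at day 28, and none fell; with anti-IFNAR1 4 fell at day 14 and 23 at day 28, and none rose. Their median changes were 1.76, 2.28, -1.31 and -1.61. In anti-IFNAR1 over syngeneic skin their median was 0.38 at day 14, with 1 gene called higher, and 0.57 at day 28, with none called. The largest called changes were those of Oasl1 at day 14, a relative of the oligoadenylate synthetases (2.86 ± 0.41 in isotype over syngeneic and -2.96 ± 0.41 with the antibody), and of Oas3 at day 28, an enzyme that makes the activator of RNase L (3.895 ± 0.61 and -2.94 ± 0.61).

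Of 4 measured genes of ISG15 conjugation and removal, Usp18 among them, 3 rose at day 14 and 4 at day 28, and 0 and 2 fell with the antibody. Herc6, the mouse ligase for ISG15, rose by 2.69 ± 0.51 and 2.76 ± 0.51 and fell by 1.74 (SE 0.51) with the antibody at day 28. Of 8 receptor and signalling genes 2 and 3 rose, and 0 and 2 fell with the antibody. Stat2, a subunit of the factor that binds the element, rose by 1.63 ± 0.48 and 2.28 ± 0.48 and fell by 1.75 (SE 0.48) at day 28. Ifnar1, the target of the antibody, differed by -0.48 ± 0.29 with it at day 14 and by -0.47 ± 0.29 at day 28, and Ifnar2 by -1.02 ± 0.34 (adjusted p = 0.14) and -0.25 ± 0.34, none of them called.

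The 7 measured type I interferon genes themselves had group means of 4.32 to 4.57, near the floor of the scale, and none was called in these 4 comparisons. Of 13 measured genes on the interferon gamma list, Ifng among them, 11 rose at day 14 and 10 at day 28 in isotype over syngeneic skin, and 0 and 3 fell with the antibody. Their median in anti-IFNAR1 over syngeneic skin was 1.25 at day 14 and 1.83 at day 28, with none called. Ifng itself, the cytokine, is part of these counts. It rose by 2.78 ± 0.44 and 2.92 ± 0.44 and fell by 2.46 (SE 0.44) with the antibody at day 28, beside Cxcl10 and Icam1.

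The genes whose levels over the 24 arrays were most like the mean of the 7 were Irf7, Phf11d, Rnf213, Trim30a, Ddx58, Slfn8, Slfn1, Fcgr1, Dhx58 and Trim30d, with Pearson's r from 0.935 to 0.956. The members' own r with that mean ran from 0.872 to 0.938. The arrays share their groups, and with the group means taken out the r of the 10 genes was 0.684 to 0.801. These are descriptions over 24 arrays.

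Markers of infiltrating cells moved in the members' direction in isotype over syngeneic skin and with the antibody. Between days in isotype skin the members' median was -1.01. That of T cell genes was -0.51, that of macrophage and monocyte genes -0.87 and that of neutrophil genes 1.895. In anti-IFNAR1 over syngeneic skin 4 T cell genes were called higher at day 14 and 1 at day 28. Of the macrophage and monocyte genes 1 and 0 were, and of the neutrophil genes none at either day. None of the members was called there. The 9 measured T cell genes all rose in isotype over syngeneic skin at both days, and 5 and 9 of them fell with the antibody at day 14 and day 28. Their mean level ran from 7.23 to 7.94 in isotype skin at day 14, from 5.87 to 6.63 with the antibody and from 4.76 to 5.46 in syngeneic skin, and from 6.94 to 7.26, 5.42 to 5.75 and 4.66 to 4.94 at day 28. Of 9 macrophage and monocyte genes 7 and 8 rose, and 2 and 5 fell with the antibody; their mean level ran from 10.72 to 11.11 in isotype skin and from 9.64 to 10.24 with the antibody at day 14. Of 5 neutrophil genes 4 and 5 rose, and 0 and 5 fell. The part of these cells in the members' changes was not tested, and in bulk skin fewer cells of a type and less RNA per cell cannot be told apart.

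**Figure D5:**
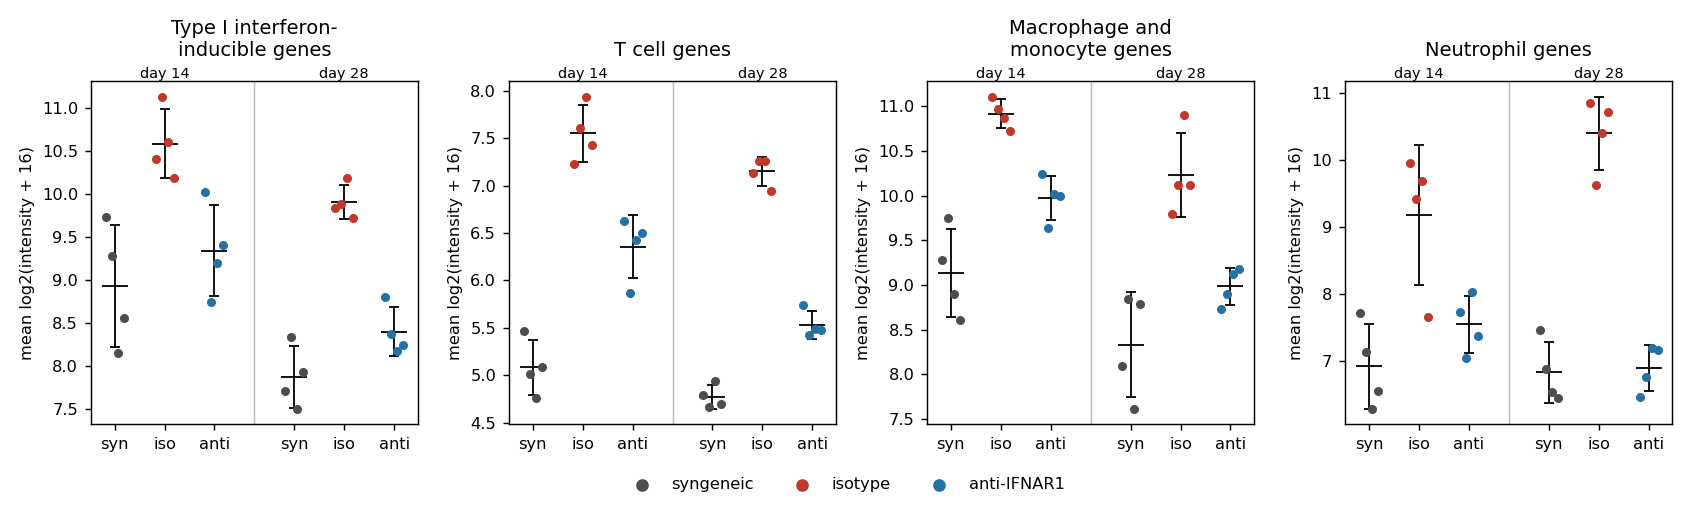
Mean level of 4 gene lists on every array, as log2(intensity + 16), by group and day, with the mean and SD of 4 arrays. The T cell list does not overlap between any 2 of the 3 treatments within a day, while the type I interferon-inducible list of anti-IFNAR1 skin overlaps with that of syngeneic skin. Its mean was higher in anti-IFNAR1 than in syngeneic skin, at 9.34 against 8.93 on day 14 and 8.40 against 7.87 on day 28.

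Of the 6 plasmacytoid dendritic cell genes, 1 rose and 1 fell at day 14 and 2 rose and 1 fell at day 28 in isotype over syngeneic skin, and 2 fell with the antibody at day 28. Bst2, which type I interferon also induces, rose by 1.93 ± 0.43 and 2.44 ± 0.43. Of 10 hair follicle genes 2 fell at day 28 in isotype over syngeneic skin. Defining genes of skin were high on every array: the mean level of 11 keratinocyte and fibroblast genes ran from 12.7 to 14.1 over the arrays, with Krt14 called higher and Pdgfra called lower in isotype skin at both days. Krt14, a keratin of basal keratinocytes, also fell with the antibody at day 28 (-1.01 ± 0.18, adjusted p = 0.0013).

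RNA quality also varied between the groups of day 14. The log2 ratio of the 3' to the 5' Gapdh control probe set, which rises as RNA degrades, was 1.34 ± 0.63 (SD) in isotype skin at day 14, against 2.88 ± 2.54 in syngeneic and 3.35 ± 1.35 in anti-IFNAR1 skin. It was above 4 on 5 arrays: syngeneic replicate 4 and anti-IFNAR1 replicates 3 and 4 of day 14, and syngeneic replicate 3 and isotype replicate 1 of day 28. Without these arrays the members called went from 5 to 3 and from 5 to 2 in isotype over syngeneic skin at day 14 and day 28, and from 2 to 0 and from 5 to 2 with the antibody. With the ratio as a covariate, which keeps all arrays, they went from 2 to 1 with the antibody at day 14. In isotype over syngeneic skin at day 14 the covariate fit called Rsad2 as well (1.75, adjusted p = 0.014), and no member lost its call. No member changed sign in these 4 comparisons under either setting.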

How the data were processed

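Skin RNA was measured on 24 Affymetrix arrays, 4 in each of 6 groups. The deposited values are probe set intensity on a linear scale, from 1.68 to 92640, with array medians of 14.8 to 17.7; the summarisation and any normalization by the authors are not given in the sources used here. Precision is limited by 4 arrays per group. Of the probe sets with 1 symbol (34945 used), the brightest on average stood for its gene. Values were tested as log2(intensity + 16) with limma 3.58.1 (R 4.3.3) in a group-means model of the 24 arrays, two-sided, adjusted by Benjamini-Hochberg over 18193 genes at 0.05, and the fit was tested on simulated data. The members and lists were chosen with earlier results of these data known. Named genes were the 7 members, Ifnar1, Ifnar2, up to 4 called genes per list with the largest change, and the 10 genes most like the members' mean; part of them is named. Alternatives were other normalizations, offset, filter, probe set rule, prior, arrays in the fit, Gapdh ratio, replicate block and each array left out. Promoter letters came from RefSeq (GRCm38).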

Additional observations from a re-analysis of the deposited data

Results flagged for a closer look

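In 4 of the 42 sets of 4 arrays (7 genes in 6 groups) 1 array stood apart from the others by more than 0.829 of the range of its set; chance gives about 1 in 20. Ifit1 was at 12.32 on isotype replicate 2 of day 14, the highest of its group. Ifit1 was at 9.06 and Rsad2 at 8.82 on syngeneic replicate 2 of day 28, both the highest of their group. Rsad2 was at 8.53 on anti-IFNAR1 replicate 2 of day 14, the lowest of its group.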

How the results depend on the processing

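Of 2618 member values under other settings, 2497 kept direction and side of the threshold, 67 lost a call, 12 gained one and 42 changed sign, and 0 of the sign changes were in a called change. Without the arrays of high Gapdh ratio the members called were 3 and 2 in isotype minus syngeneic (day 14 and 28), 0 and 2 in anti-IFNAR1 minus isotype and 0 between days in isotype skin; with only the arrays compared they were 0 in both day 14 comparisons and between days; with the Gapdh ratio as covariate 1 in anti-IFNAR1 minus isotype at day 14. With the replicate block they were 1 in that comparison and 1 between days in isotype skin (Mx1 and Ifit3 lost their calls there, at adjusted p of 0.056 and 0.069, and Ifit1 in isotype minus syngeneic at day 14, at adjusted p = 0.051). Over 60 same-numbered pairs of arrays the correlation of deviations ran from -0.62 to 0.57, with 17 over 0.1. Differently numbered pairs were not compared, so these values do not settle whether replicate numbers pair the arrays. Leaving out each array in turn gave 3 to 6 members and 3 to 5 in isotype minus syngeneic, 0 to 3 and 3 to 5 in anti-IFNAR1 minus isotype, and 1 to 2 between days in isotype skin. The cause of these losses was not tested; the fits that leave out arrays or keep only those compared hold fewer arrays, those with the covariate or the block hold all 24.

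The reversed differences of anti-IFNAR1 minus syngeneic at day 14 were, for Ifit3, 0.0891 with quantile normalization, 0.142 with centred medians and 0.0630 without high Gapdh ratio; for Mx1, 0.0568, 0.0920 and, with the covariate, 0.0117; for Mx2, -0.0148 with an offset of 1, -0.0201 with the covariate and -0.0016 without high Gapdh ratio. Leaving out each array in turn, they ran from -0.368 to 0.356 (Ifit3), -0.405 to 0.213 (Mx1) and -0.118 to 0.173 (Mx2), and at day 28 from -0.308 to 0.560 (Ifit1), -0.114 to 0.0706 (Mx1) and -0.193 to 0.573 (Rsad2). Among differences between days of isotype minus syngeneic, Mx2 was -0.0990 with the covariate, -0.253 without high Gapdh ratio and -0.236 to 0.196 leaving out an array, and Rsad2 -0.117 with the mean of all probe sets and -0.0824 without high Gapdh ratio. Among those of anti-IFNAR1 minus isotype, Mx2 was 0.0030 with the covariate, 0.0539 without high Gapdh ratio and -0.338 to 0.0938 leaving out an array, and Rsad2 0.0162 with the covariate. Their causes were not tested.

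All genes called numbered 2472 in isotype minus syngeneic at day 14, 1315 without high Gapdh ratio, 83 with only the arrays compared and 1350 to 3159 leaving out an array. In anti-IFNAR1 minus isotype at day 14 they numbered 148, and 247 without the dimmest genes, 236 with the mean of probe sets, 64 with the replicate block, 67 with the covariate, 19 without high Gapdh ratio, 2 with only the arrays compared and 32 to 625 leaving out an array. At day 28 they were 2422, and 1539 with only the arrays compared.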

Other observations

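The log2 difference of Ifit1 over Ifit2 within an array of isotype skin was 1.09 ± 0.41 (SD, n = 4) at day 14, from 0.56 to 1.54, and 3.12 ± 0.81 at day 28, from 2.05 to 3.89. That of Ifit1 over Ifit3 was 0.73 ± 0.50 and 2.18 ± 0.54. These ratios were chosen after the values had been seen, so they are given as a description only. Between the days they differed by 2.03 and 1.45 in isotype skin, by -0.54 and -0.40 in syngeneic skin and by -0.90 and -0.31 in anti-IFNAR1 skin. Ratios of intensities of different probe sets show unequal change only, not which gene is the more abundant.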
